A study of Mus musculus with 98 samples.

Results

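Arntl, Clock and Npas2 encode the activators of the mammalian circadian clock, and their messenger RNA was followed around the day in 4 mouse tissues. The 3 genes were taken by symbol from the mouse rows of both deposited count tables, where they were 3 of 19689 mouse genes in the liver table and 3 of 20415 in the table of the other tissues. The rule used no measured value, but the genes were chosen with earlier results of these data known. All 3 passed the filter on low counts in each tissue, so that none is missing from the tests.

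The samples came from FRGN mice, which lack Fah, Rag2 and Il2rg on a non-obese diabetic background and whose liver can be rebuilt by hepatocytes injected into the spleen. The Hu arm had received human hepatocytes and the Mu arm murine hepatocytes, and the Mu arm serves as the control, in a study of how the clock of hepatocytes bears on rhythms in and outside the liver. Both arms were male and 10 weeks old and carried the same deletions, and both had cycles of nitisinone (which prevents the loss of Fah-deficient hepatocytes), sulfamethoxazole with trimethoprim, and dextrose in the drinking water. By the labels only Hu mice with more than 70% human repopulation were used, and their livers keep mouse non-parenchymal cells and mouse hepatocytes. The share of counts in human rows is another measure, and it was 15.9 to 93.1% in Hu livers, with a median of 58.7%. Samples of liver, of skeletal muscle and of 2 hypothalamic regions, the arcuate nucleus (ARC) and the seat of the central pacemaker, the suprachiasmatic nucleus (SCN), were taken at zeitgeber time (ZT, hours after lights on) 2, 6, 10, 14, 18 and 22. Liver and muscle each gave 15 Hu and 12 Mu libraries, and ARC and SCN each gave 10 Hu and 12 Mu libraries, and each time point of an arm held 1 to 3 of them. The labels do not say which libraries share a mouse, so p-values measure the spread between these libraries.

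The protein made from Arntl (BMAL1) pairs with CLOCK or with NPAS2, and the pair binds E-box sequences and turns on Per, Cry, Nr1d1, Nr1d2 and Dbp. PER and CRY proteins then inhibit the pair, and the nuclear receptors REV-ERB (made from Nr1d1 and Nr1d2) and ROR compete at response elements in the Arntl promoter, where the first represses and the second activates. All 3 activators belong to the bHLH-PAS family of transcription factors, and NPAS2 can take the place of CLOCK in part. In mouse liver, Arntl and Npas2 are known for strong rhythms of messenger RNA and Clock for a weak one.

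The start regions of the 3 genes are shown first because the receptors named above act on such sequence. Arntl (ENSMUSG00000055116) lies on the plus strand at chr7:113207465-113314126, Clock (ENSMUSG00000029238) on the minus strand at chr5:76209868-76304792 and Npas2 (ENSMUSG00000026077) on the plus strand at chr1:39193731-39363236, in build GRCm38 with GENCODE M21 models. Each window below, from RefSeq and build GRCm38.p6, runs 5′ to 3′ on the strand of the gene from 250 bases before a transcription start to 50 bases after it. They span chr7:113207261-113207560 for Arntl, chr5:76304499-76304798 for Clock and chr1:39194022-39194321 for Npas2. Capitals mark matches to the ROR response element GTAGGTNA.
Arntl: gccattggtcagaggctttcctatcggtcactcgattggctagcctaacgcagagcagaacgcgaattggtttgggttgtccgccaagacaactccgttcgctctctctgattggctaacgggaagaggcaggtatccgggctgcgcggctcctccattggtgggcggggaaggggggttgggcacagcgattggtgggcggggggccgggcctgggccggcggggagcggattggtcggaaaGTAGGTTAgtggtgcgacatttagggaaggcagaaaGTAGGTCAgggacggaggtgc
Clock: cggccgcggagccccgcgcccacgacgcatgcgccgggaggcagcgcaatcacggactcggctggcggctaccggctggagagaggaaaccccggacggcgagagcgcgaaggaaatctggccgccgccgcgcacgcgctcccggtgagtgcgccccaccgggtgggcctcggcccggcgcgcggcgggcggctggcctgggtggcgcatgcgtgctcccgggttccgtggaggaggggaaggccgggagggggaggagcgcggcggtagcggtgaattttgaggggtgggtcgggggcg
Npas2: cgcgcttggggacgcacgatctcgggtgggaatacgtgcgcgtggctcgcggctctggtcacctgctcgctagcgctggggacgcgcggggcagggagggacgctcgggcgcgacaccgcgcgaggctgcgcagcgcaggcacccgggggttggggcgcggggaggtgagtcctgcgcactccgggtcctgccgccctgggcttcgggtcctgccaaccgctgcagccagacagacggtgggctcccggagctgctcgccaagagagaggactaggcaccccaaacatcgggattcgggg
The Arntl window held GTAGGTTA, starting 7 bases before the transcription start, and GTAGGTCA, starting at base 30 after it. The second also holds AGGTCA, the core of the element. Both strands were searched, and GTAGGTNA was found in 702 of the 32851 windows of all genes (2.14%), with 2 or more matches in 12 windows. The Clock and Npas2 windows above held no match to GTAGGTNA, AGGTCA (in 16.3% of all windows), the E-box CACGTG (7.15%), CCAAT (37.4%) or the D-box TTATGTAA (0.938%). The Arntl window held no CACGTG or TTATGTAA, and it held ATTGG, which is CCAAT read on the other strand, at 7 places. RefSeq lists a second start for Arntl, whose window overlaps the one printed and holds GTAGGTTA once, and 2 other starts for Clock, of which 1 window holds AGGTCA on the strand opposite to the gene. The letters were chosen with these windows known, and a match is a description of the sequence, not of binding.

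Levels are given as CPM (counts scaled to library size, here within each tissue with TMM factors, the trimmed mean of M values) and are divided by exon length only where genes are compared. On that per-kilobase scale Clock had the highest median of the 3 genes in liver, ARC and SCN in both arms, and Npas2 the lowest. In Mu liver the medians over 12 libraries were 4.82 CPM per kb for Clock, 3.94 for Arntl and 1.23 for Npas2, and the ranges of the 3 genes overlapped. In Mu ARC they were 8.64, 3.52 and 2.08 CPM per kb, and all 12 Clock values lay above all Arntl values. In Mu SCN they were 4.88, 3.14 and 2.41 CPM per kb. Muscle alone had the order reversed at the top in Mu, with 4.54 CPM per kb for Arntl, 2.87 for Clock and 0.304 for Npas2. In Hu muscle the median of Clock, at 3.05, was above that of Arntl, at 2.50 CPM per kb. These medians weigh libraries alike, and Hu muscle held unequal numbers of libraries per time point. Averaged over time points, Arntl was above Clock in both arms, at 3.70 and 2.67 CPM per kb in Hu muscle and 3.61 and 2.75 in Mu muscle. The ranges of Arntl and Clock overlapped in liver, muscle and SCN of both arms, since Arntl moved over the day by more than the gap between medians, while in muscle every Clock value lay above every Npas2 value of the same arm.

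**Figure D1:**
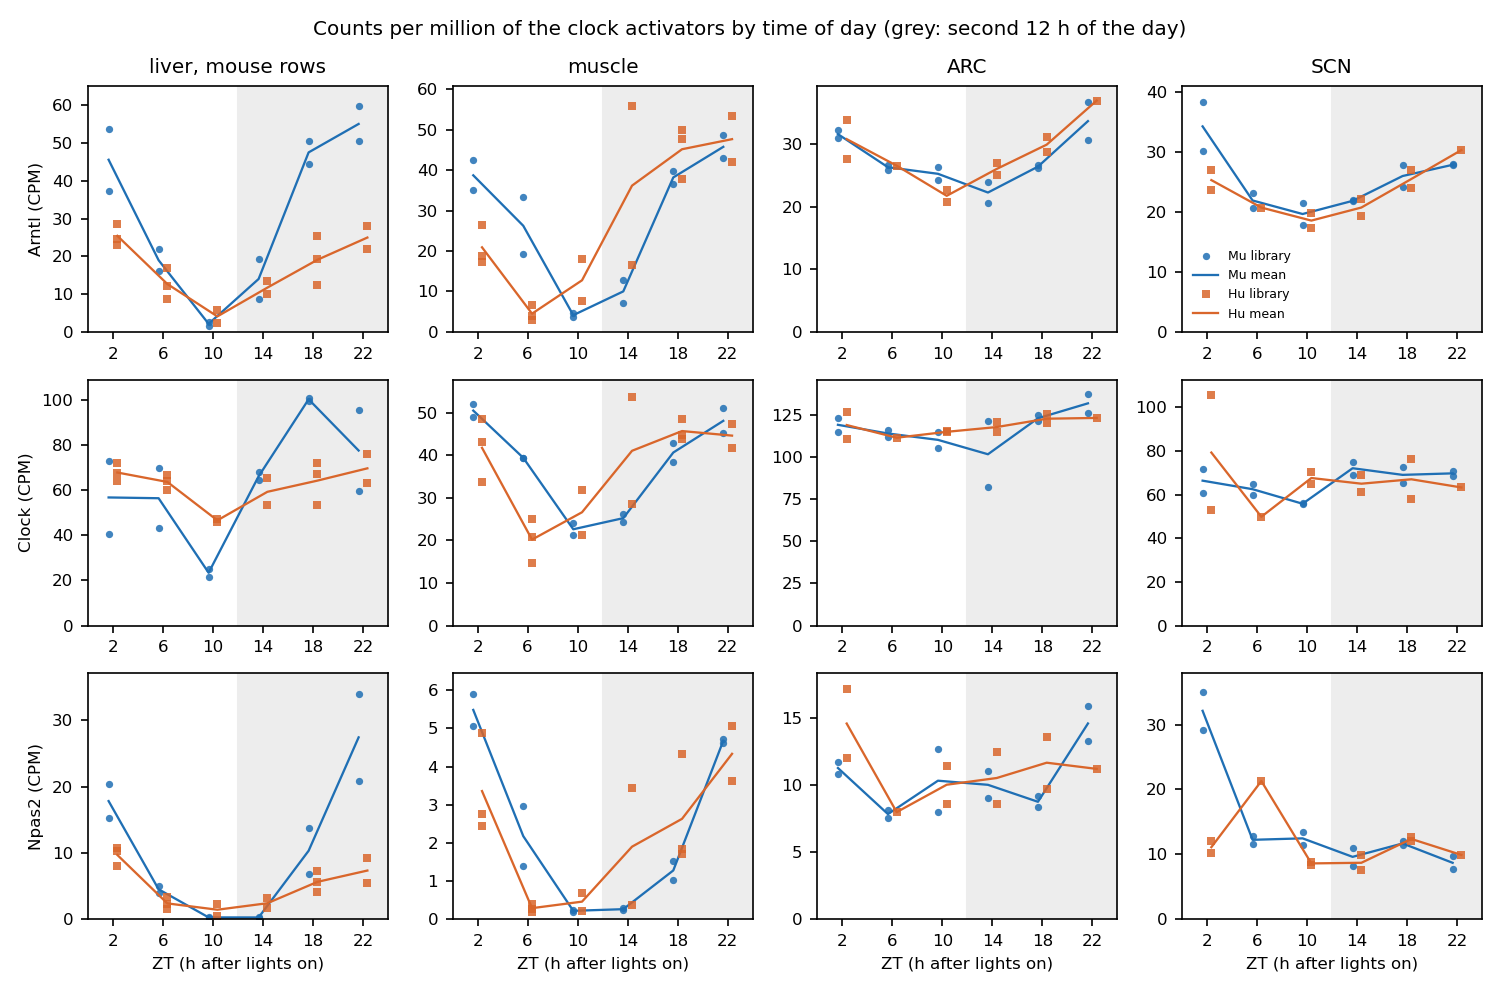
TMM-scaled CPM (y axis, from 0) of Arntl, Clock and Npas2 (rows) against ZT in hours in liver, muscle, ARC and SCN (columns); points are single libraries of Mu (blue circles) and Hu (orange squares), lines join the means of each arm, and grey marks the second 12 h of the day. In liver and muscle Arntl and Npas2 of Mu are lowest at ZT 10 (Arntl) and at ZT 10 and 14 (Npas2). The lowest means of Hu muscle are at ZT 6, while in ARC and SCN the lowest Arntl value is 17.3 CPM.

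In Mu liver all 3 activators had a daily rhythm, with lowest levels at ZT 10 or 14 and highest levels from ZT 18 to ZT 2. Arntl measured 37.4 and 53.9 CPM at ZT 2, 16.1 and 21.9 at ZT 6, 2.63 and 1.70 at ZT 10, 19.4 and 8.64 at ZT 14, 50.7 and 44.5 at ZT 18, and 59.7 and 50.4 at ZT 22. The libraries at ZT 10 did not overlap with those of any other time. Its fitted amplitude, the log2 distance from mean to peak, was 1.88 ± 0.48 (SE over libraries by jackknife, as for all amplitudes and peak times), a 13.5-fold range from trough to peak, with the peak at ZT 22.3 ± 0.546 h (edgeR adjusted p = 0.000589). Npas2 had the wider swing of the pair. It measured 15.2 and 20.4 CPM at ZT 2, 3.995 and 5.003 at ZT 6, 0.298 and 0.209 at ZT 10, 0.318 and 0.173 at ZT 14, 13.8 and 6.82 at ZT 18, and 34.0 and 20.8 at ZT 22. The 4 libraries at ZT 10 and 14 were the low ones, and they rest on 16 to 27 counts each against 333 to 2466 counts at the other times. The amplitude of Npas2 was 3.63 ± 0.46, a 152.9-fold range, with the peak at ZT 23.4 ± 0.522 h (edgeR adjusted p = 6.84e-06). By fitted amplitude Npas2 ranked 2 and Arntl 45 of 14977 genes in Mu liver.

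Clock, whose messenger RNA is nearly constant in many tissues, also cycled in Mu liver but over a smaller range. It measured 40.5 and 73.1 CPM at ZT 2, 69.8 and 43.2 at ZT 6, 25.1 and 21.7 at ZT 10, 68.0 and 64.4 at ZT 14, 99.7 and 101 at ZT 18, and 95.6 and 59.6 at ZT 22. The 2 libraries at ZT 10 were lowest and the 2 at ZT 18 highest, and replicates at ZT 2, 6 and 22 lay far apart. The amplitude was 0.68 ± 0.29, a 2.57-fold range, with the peak at ZT 20.3 ± 1.11 h (edgeR adjusted p = 0.00873, and 0.0753 and 0.114 without ZT 10 and ZT 18). In Mu liver 17.3% of all 14977 genes tested had an adjusted p under 0.05 for rhythm, the background for 3 of 3 members.

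In the mouse rows of Hu liver the fitted amplitudes of the 3 genes were smaller than in Mu, and none passed the test for rhythm there. These rows come from the mouse cells left in a liver with 15.9 to 93.1% of its counts in human rows, and in bulk tissue fewer cells of a type and less RNA per cell cannot be told apart. Arntl measured 23.1, 28.5 and 24.7 CPM at ZT 2, 8.84, 17.02 and 12.2 at ZT 6, 5.83 and 2.42 at ZT 10, 9.96 and 13.5 at ZT 14, 25.5, 19.4 and 12.4 at ZT 18, and 28.2 and 21.9 at ZT 22. As in Mu, ZT 10 was lowest, but the highest Hu library, at 28.5 CPM, was below all 6 Mu libraries of ZT 2, 18 and 22. The amplitude was 1.101 ± 0.25 with the peak at ZT 22.6 ± 0.554 h (edgeR adjusted p = 0.119). Npas2 measured 8.00, 10.8 and 10.3 CPM at ZT 2, 1.52, 3.37 and 2.22 at ZT 6, 2.33 and 0.497 at ZT 10, 1.62 and 3.16 at ZT 14, 7.24, 5.58 and 4.03 at ZT 18, and 5.44 and 9.21 at ZT 22. At ZT 10 and 14 all 4 Hu libraries exceeded all 4 Mu libraries, and at ZT 2 and 22 all 5 Hu libraries were below all 4 Mu libraries. The Hu values rest on 110 and 15 counts at ZT 10 and on 59 and 87 counts at ZT 14. The amplitude of Npas2 was 1.44 ± 0.32, a 7.34-fold range, with the peak at ZT 22.7 ± 0.497 h (edgeR adjusted p = 0.0788). Clock ranged only from 46.1 to 76.2 CPM over the 15 Hu livers, with an amplitude of 0.22 ± 0.08 (edgeR adjusted p = 0.616). Over all genes 0.167% passed the test for rhythm in Hu liver. The unadjusted edgeR values of Arntl and Npas2 were 0.00154 and 0.000399, both under 0.05, and DESeq2 called both after adjustment (0.0138 and 0.00326).

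The test of the difference between arms in liver passed for Npas2 only, beside 1.28% of all genes. The amplitude of Npas2 was lower in Hu than in Mu, with a difference of -2.19 ± 0.56, at 39.6% of the Mu value, and the peak differed by -0.70 ± 0.719 h (edgeR adjusted p = 0.0445 for a different rhythm, DESeq2 adjusted p = 0.00140). The call is near its threshold: it was lost in 16 of 27 fits that left out 1 library, 9 of them Hu and 7 Mu libraries, with edgeR adjusted p from 0.0555 without Hu replicate 1 of ZT 18 to 0.108 without Mu replicate 2 of ZT 14, and the adjusted p was 0.212 without ZT 10 and 0.345 without ZT 14. For Arntl the amplitude differed by -0.77 ± 0.54 and the peak by 0.381 ± 0.778 h (edgeR adjusted p = 0.388). For Clock the differences were -0.46 ± 0.30 and 2.73 ± 1.52 h (edgeR adjusted p = 0.204, and 0.0278 without Mu replicate 1 of ZT 6). In the test over both arms, Arntl (edgeR adjusted p = 0.000634) and Npas2 (0.000505) had a common rhythm and Clock (0.0631) did not pass, beside 6.93% of all genes.

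The fitted level, the midline of the log2 rhythm, was lower by 0.61 ± 0.29 for Arntl in Hu liver (edgeR adjusted p = 0.0253). The differences of Clock, 0.04 ± 0.18, and Npas2, 0.01 ± 0.40, were smaller than their errors. On plain library totals both were called higher in Hu, at 0.70 each (edgeR adjusted p = 7.72e-05 and 0.0342). On totals that include the human rows both were called lower, at -0.69 and -0.70 (edgeR adjusted p = 0.00850 and 0.0472). This midline is not the mean CPM over the day, which was not tested. Averaged over time points, Npas2 was 10.1 CPM in Mu liver and 4.80 in Hu liver. Arntl was 30.6 and 16.4 CPM, and Clock 63.5 and 61.9 CPM. In this tissue 79.5% of all genes differed in level and 37% were lower in Hu, so 1 of 3 members called is below the background. The value of Arntl depends on the scaling in the same way: it is 0.06 (edgeR adjusted p = 0.826) on plain library totals and -1.33 on totals that include the human rows. The median of all genes moves with it, from 0.07 to 0.74 and -0.68, and relative to that median Arntl stood at -0.68, -0.68 and -0.64 on the 3 scales in turn. Genes higher in Hu made up 53.5% of all calls with TMM factors, 84.9% on plain totals and 22.6% on totals over all rows. The call was also lost without ZT 2, 6, 14 or 18 and in 2 of 27 fits without 1 library, those without Mu replicate 2 of ZT 6 (edgeR adjusted p = 0.0707) and Mu replicate 1 of ZT 14 (0.0773).

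The cell makeup of the mouse rows differed between arms, and its part in these differences was not tested. The 7 mouse hepatocyte markers together measured 96261 to 130065 CPM in Mu livers and 7593 to 83683 CPM in Hu livers. The 5 stellate cell markers measured 331 to 496 CPM in Mu and 470 to 4124 CPM in Hu, and the 5 bile duct markers 73.5 to 162 CPM and 236 to 867 CPM. None of these markers was at 0 in all livers of an arm. Within the 15 Hu livers, the level of the activators was fitted against the share of counts in human rows with time of day in the model. The slope per doubling of the ratio of human to mouse counts was -0.04 for Arntl (edgeR adjusted p = 0.772), -0.06 for Clock (0.144) and 0.01 for Npas2 (0.954), whereas 48.7% of all genes passed. Leaving out 1 liver gave slopes from -0.11 to 0.06 for Arntl, -0.09 to -0.04 for Clock, which passed in 1 of 15 such fits (without replicate 1 of ZT 2), and -0.10 to 0.10 for Npas2. On plain library totals the slope of Clock turned to 0.08 and passed.

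**Figure D2:**
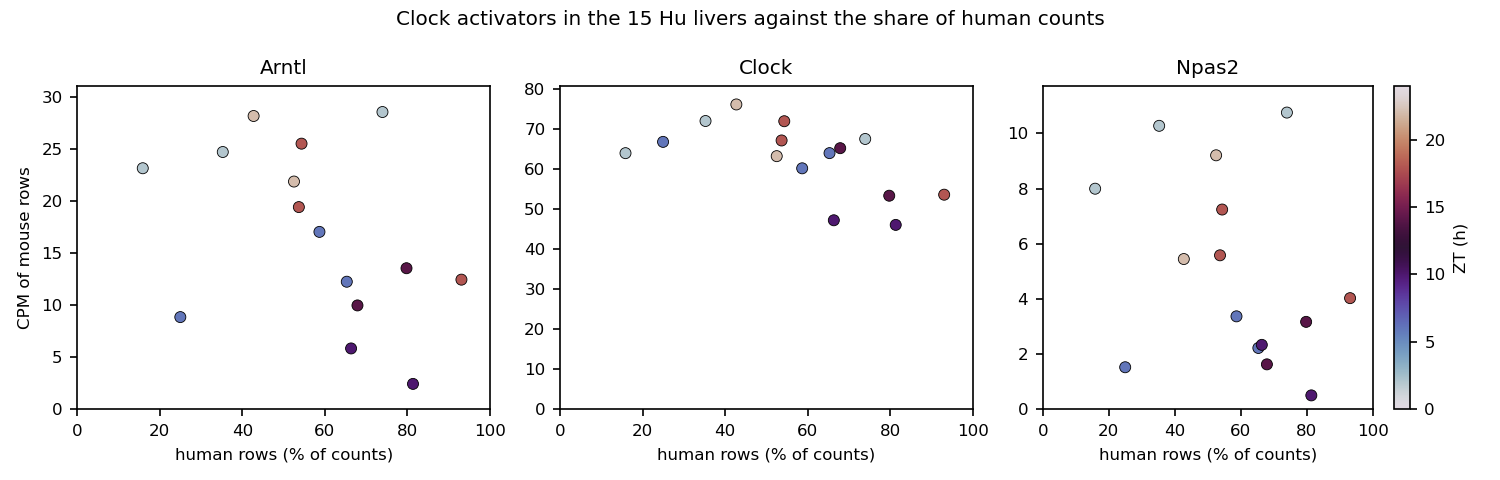
TMM-scaled CPM of mouse Arntl, Clock and Npas2 (y axes, from 0) against the percent of counts in human rows (x axis) in each of the 15 Hu livers, coloured by ZT in hours. The 2 livers of ZT 10, dark purple, hold the lowest Arntl and Clock values, and both lie above the median share of 58.7%, so time and share are not balanced.

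In muscle all 3 activators had a daily rhythm in both arms, and all 3 fitted peaks were earlier in Hu. Arntl in Mu measured 42.4 and 35.0 CPM at ZT 2, 33.2 and 19.2 at ZT 6, 3.59 and 4.72 at ZT 10, 12.9 and 7.17 at ZT 14, 39.9 and 36.5 at ZT 18, and 48.6 and 42.9 at ZT 22. In Hu it measured 17.3, 26.5 and 18.8 CPM at ZT 2, 3.92, 6.601 and 3.06 at ZT 6, 17.9 and 7.59 at ZT 10, 16.5 and 55.8 at ZT 14, 47.8, 49.96 and 37.7 at ZT 18, and 42.0 and 53.2 at ZT 22. The trough was thus at ZT 10 in Mu and at ZT 6 in Hu, where the 3 Hu libraries were below both Mu libraries. At ZT 10 and 14 the order was the reverse, with all 4 Hu libraries above the Mu libraries of the same time. Hu replicate 2 of ZT 14, at 55.8 CPM, was the highest of all 27 muscle libraries, and its partner at that time had 16.5 CPM.

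Clock and Npas2 also had their lowest mean at ZT 6 in Hu muscle and at ZT 10 in Mu muscle. Clock in Mu muscle was lowest at ZT 10, with 21.2 and 24.02 CPM, and ZT 14, with 26.2 and 24.2 CPM, and highest at ZT 2, with 52.0 and 49.0 CPM. In Hu muscle it was lowest at ZT 6, with 14.7, 25.1 and 20.8 CPM, and the 2 libraries of ZT 14 held 28.5 and 53.6 CPM. Npas2 in Mu muscle measured 5.91 and 5.05 CPM at ZT 2, 2.96 and 1.38 at ZT 6, 0.237 and 0.196 at ZT 10, 0.241 and 0.279 at ZT 14, 1.53 and 1.02 at ZT 18, and 4.73 and 4.62 at ZT 22. In Hu it measured 2.45, 4.87 and 2.75 CPM at ZT 2, 0.271, 0.408 and 0.17996 at ZT 6, 0.693 and 0.221 at ZT 10, 0.361 and 3.44 at ZT 14, 4.34, 1.71 and 1.84 at ZT 18, and 3.61 and 5.05 at ZT 22. At ZT 6 the 3 Hu libraries were again below both Mu libraries, and at ZT 18 all 3 were above both. Replicate 2 of ZT 10 in Hu, at 0.221 CPM, was below 2 of the 3 libraries of ZT 6. The low Npas2 values of muscle rest on few counts. In Hu the libraries held 20, 24 and 10 counts at ZT 6 and 27 and 13 at ZT 10. In Mu they held 16 and 15 counts at ZT 10 and 18 and 16 at ZT 14. Hu replicate 2 of ZT 14 exceeded its partner in all 3 genes.

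The muscle amplitudes were close in the 2 arms for Arntl and Clock. Arntl had an amplitude of 1.56 ± 0.33 in Mu (edgeR adjusted p = 0.0100) and 1.55 ± 0.30 in Hu (0.00324), and Clock of 0.60 ± 0.06 (0.0121) and 0.57 ± 0.13 (0.00890). Npas2 had 2.51 ± 0.16 in Mu (edgeR adjusted p = 0.00165) and 1.86 ± 0.49 in Hu (0.0114), a difference of -0.65 ± 0.51. Rhythms passed in 5.31% of all genes in Mu muscle, in 7.78% in Hu muscle and in 13.4% for the rhythm common to both arms, which all 3 members passed. In a fit of the Hu libraries alone, Clock (edgeR adjusted p = 0.0872) and Npas2 (0.102) did not pass. Peaks in Mu and Hu were at ZT 23.1 ± 0.748 h and ZT 18.9 ± 0.807 h for Arntl, ZT 23.8 ± 0.483 h and ZT 19.9 ± 1.17 h for Clock, and ZT 0.461 ± 0.499 h and ZT 20.9 ± 1.21 h for Npas2. The Hu peak therefore came earlier, with Hu minus Mu differences of -4.14 ± 1.101 h, -3.95 ± 1.27 h and -3.53 ± 1.31 h. After adjustment over all genes the difference in rhythm did not pass for any member, with edgeR adjusted p = 0.132, 0.223 and 0.145 (unadjusted 0.000517, 0.00349 and 0.000659), beside 0.0704% of all genes that passed. DESeq2 called Arntl (adjusted p = 0.00553) and Npas2 (0.00758) and not Clock (0.0611). Levels did not pass either, at -0.02 ± 0.33 for Arntl, -0.04 ± 0.12 for Clock and 0.28 ± 0.50 for Npas2 (edgeR adjusted p from 0.562 to 0.964), in a tissue where 26.9% of all genes did. Fat cell markers, which mark fat in the muscle samples, summed to 133 to 2065 CPM in Mu and 187 to 2263 CPM in Hu muscle, and their part was not tested.

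**Figure D3:**
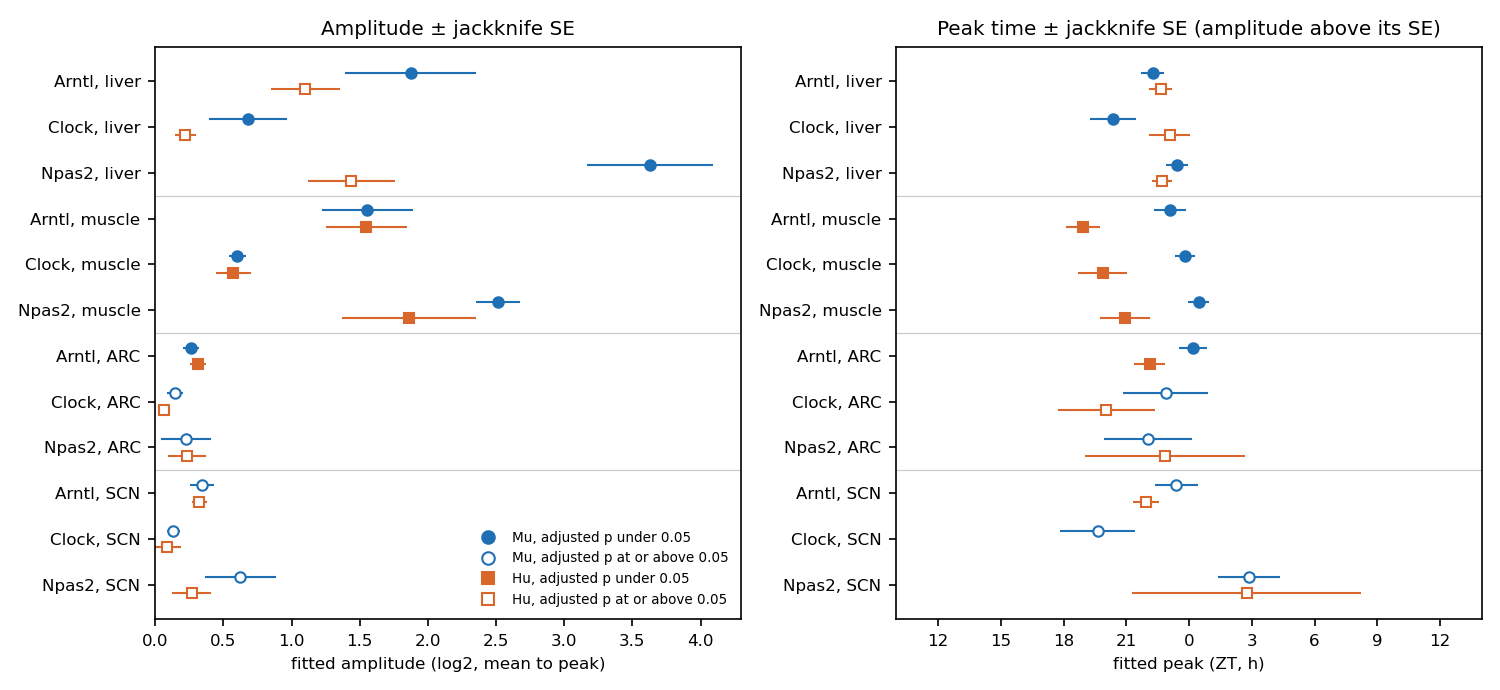
Fitted amplitude (left, log2 from mean to peak) and fitted peak time (right, ZT in hours, centred on ZT 0) of each activator by tissue, with jackknife SE bars; blue circles are Mu, orange squares Hu, and filled symbols passed an edgeR adjusted p under 0.05. The 3 muscle genes show Hu minus Mu peak differences of -4.14 to -3.53 h, and in liver the Npas2 amplitude is 3.63 in Mu and 1.44 in Hu.

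In ARC and SCN, Arntl was the only member with a rhythm that passed in the cosine model, and its range was small. In Mu ARC it measured 32.3 and 31.0 CPM at ZT 2, 26.7 and 25.9 at ZT 6, 24.3 and 26.3 at ZT 10, 20.6 and 23.96 at ZT 14, 26.1 and 26.7 at ZT 18, and 36.7 and 30.7 at ZT 22. In Hu ARC it measured 34.0 and 27.7 CPM at ZT 2, 26.6 at ZT 6, 20.8 and 22.8 at ZT 10, 26.98 and 25.1 at ZT 14, 28.8 and 31.1 at ZT 18, and 37.0 at ZT 22. The highest library of each arm was at ZT 22, and the lowest was at ZT 14 in Mu and ZT 10 in Hu. The amplitude was 0.26 ± 0.06 in Mu, with the peak at ZT 0.186 ± 0.672 h (edgeR adjusted p = 0.0135), and 0.32 ± 0.06 in Hu, with the peak at ZT 22.1 ± 0.723 h (0.0413). The common rhythm passed at 0.000563 in edgeR, and the peaks differed by -2.08 ± 0.986 h (edgeR adjusted p above 0.999 for a different rhythm). The call in Hu was lost in 16 of 22 fits without 1 library (adjusted p up to 0.238 without Hu replicate 1 of ZT 10), and that in Mu without ZT 2, 14 or 22 (0.0830, 0.0999 and 0.134). The shares of all genes called in ARC were 1.41% in Mu, 0.0995% in Hu and 4.53% for the common rhythm, with 0% for a different rhythm and 0.00663% for level.

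In SCN Arntl measured 30.1 and 38.3 CPM at ZT 2, 23.1 and 20.6 at ZT 6, 17.8 and 21.5 at ZT 10, 21.7 and 21.9 at ZT 14, 24.2 and 27.7 at ZT 18, and 27.9 and 27.8 at ZT 22 in Mu. The Hu values were 26.9 and 23.6 CPM at ZT 2, 20.7 at ZT 6, 17.3 and 19.8 at ZT 10, 22.1 and 19.3 at ZT 14, 26.9 and 24.002 at ZT 18, and 30.3 at ZT 22. The lowest library of each arm was at ZT 10. The common rhythm, with an amplitude of 0.33 ± 0.05 and the peak at ZT 22.8 ± 0.581 h, passed (edgeR adjusted p = 0.00186), while Mu alone (0.0518) and Hu alone (0.560) did not. The peak in Hu minus that in Mu was -1.44 ± 1.23 h. The shares of all genes called in SCN were 0.207% in Mu, 0.00666% in Hu and 1.52% for the common rhythm, and 0% for a different rhythm or level.

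Clock and Npas2 had no rhythm past the threshold in either region, except that Npas2 passed in Mu SCN when ZT was fitted as a factor (edgeR adjusted p = 0.00156). Clock measured 82.2 to 138 CPM in Mu ARC and 111 to 127 CPM in Hu ARC, with a common amplitude of 0.10 ± 0.03 (edgeR adjusted p = 0.204). In SCN it measured 55.5 to 75.0 CPM in Mu, and in Hu 49.8 to 106 CPM, where Hu replicate 1 of ZT 2 held the highest value and its partner 52.9 CPM. Npas2 measured 7.51 to 15.9 CPM in Mu ARC and 7.96 to 17.1 CPM in Hu ARC (common rhythm, edgeR adjusted p = 0.254, unadjusted 0.0479). In Mu SCN the 2 libraries of ZT 2 held 29.1 and 35.1 CPM of Npas2 and the other 10 held 7.68 to 13.4 CPM. In Hu SCN the high library was that of ZT 6, with 21.3 CPM, and those of ZT 2 held 10.2 and 11.99 CPM. The common rhythm of Npas2 in SCN did not pass (edgeR adjusted p = 0.143, unadjusted 0.00926), and its unadjusted p was 0.170 without ZT 2. In the 2 Mu libraries of ZT 2 the summed markers of neurons were 4064 and 4821 CPM, within the 3673 to 5545 CPM of all 12, and the SCN markers were 156 and 45.1 CPM in a range of 36.3 to 156 CPM. As a check on the dissections, SCN markers summed higher in Mu ARC, at 120 to 455 CPM, than in 8 of 12 Mu SCN libraries. Their median was 229 CPM in Mu ARC against 96.1 in Mu SCN, and 229 in Hu ARC against 74.4 in Hu SCN. In Hu they ran from 37.9 to 405 CPM in SCN and from 168 to 429 CPM in ARC, so these ranges overlapped. These markers thus went opposite to the region labels, which were kept, and the SCN results rest on those labels. The ARC markers were higher in Mu ARC (109 to 244 CPM) than in Mu SCN (21.99 to 86.5 CPM). None of the 3 members differed in level between arms in either region (each edgeR adjusted p above 0.999, with 0 members at an unadjusted p under 0.05).

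The ratio of Npas2 to Clock was then taken, since the proteins of these genes are alternative partners of BMAL1. In Mu liver the ratio per kb of exon ran from 0.00772 at ZT 14 to 1.08 at ZT 2 and was above 1 in 3 of 12 libraries. In Hu liver it was never above 0.456. In muscle the ratio was 0.0233 to 0.326 in Mu and 0.0248 to 0.305 in Hu, so that Clock messenger RNA exceeded Npas2 in all 27 libraries. ARC held the ratio between 0.186 and 0.386 in both arms. In SCN it was 0.310 to 1.40 in Mu, with only the 2 libraries of ZT 2 above 1, and 0.276 to 1.22 in Hu, with only that of ZT 6 above 1. These ratios compare messenger RNA per exon length of the gene models and not protein.

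**Figure D4:**
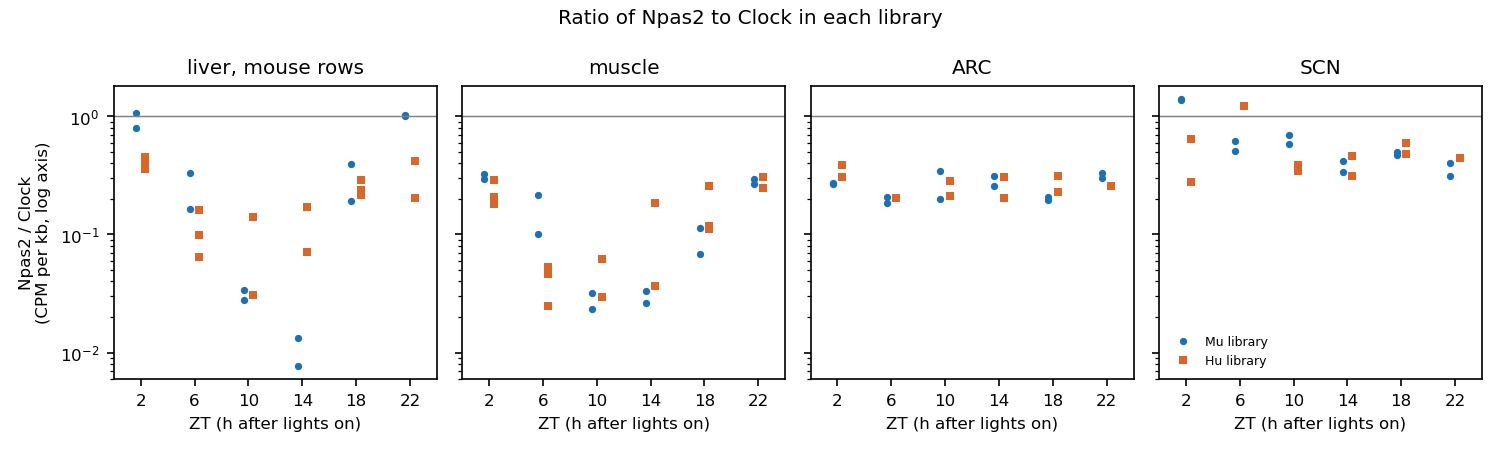
Npas2 divided by Clock, each in CPM per kb of exon (y axis, log scale), against ZT in hours in each library of liver, muscle, ARC and SCN; blue circles are Mu, orange squares Hu, and the line marks a ratio of 1. In Mu liver the ratio spans 0.00772 to 1.08, while in ARC all libraries lie between 0.186 and 0.386.

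The rhythm of each activator differed between tissues within the Mu arm. In a fit of the 36 Mu libraries of muscle, ARC and SCN, the rhythm in muscle differed from that in ARC for Arntl (edgeR adjusted p = 0.00297), Clock (0.00506) and Npas2 (2.11e-05), beside 6.61% of all 15560 genes. Against SCN the values were 0.00491, 0.000487 and 0.000139, beside 10.6% of all genes. SCN and ARC did not differ in rhythm for any of the 3 genes (adjusted p = 1 each, 0% of all genes, and 0 members at an unadjusted p under 0.05). All 6 muscle differences passed in each of the 36 fits that left out 1 library. The liver, which was counted in a separate table, was not put in this fit.

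The fitted level of Npas2 was lower in muscle than in ARC, at -1.92 on the log2 scale, and than in SCN, at -2.33 (edgeR adjusted p = 8.08e-11 and 8.67e-13). Clock was lower in muscle than in ARC, at -0.63 (1.30e-11), and lower in SCN than in ARC, at -0.81 (1.20e-12). Arntl was higher in muscle than in ARC by 0.73 and than in SCN by 0.86, and Clock was higher in muscle than in SCN by 0.18, but these 3 differences changed sign on plain library totals, to -0.34, -0.20 and -0.87. On plain totals Npas2 stood at -2.98 (muscle minus ARC) and -3.39 (muscle minus SCN) and Clock at -1.70 (muscle minus ARC), while Clock in SCN minus ARC was -0.82. The median of all genes moved from -0.11 to -1.17 (muscle minus ARC) and from -0.11 to -1.16 (muscle minus SCN) with that change of scale. Relative to that median, Arntl was higher in muscle than in ARC by 0.84 with TMM factors and by 0.83 on plain totals, and Npas2 stood at -1.81 on both. Npas2 was higher in SCN than in ARC by 0.41 (edgeR adjusted p = 0.0488), which passed in only 12 of 36 fits without 1 library, and Arntl did not differ between the brain regions (-0.13, adjusted p = 0.498). Levels differed for 92.7% of all genes between muscle and ARC, 93% between muscle and SCN and 55.9% between SCN and ARC, so a call of level says little about single members. Among called genes, those higher in muscle than in ARC made up 47.3% with TMM factors and 24.7% on plain totals.

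The peaks of the activators were compared with each other within an arm and tissue. In muscle Npas2 peaked after Arntl by 1.37 ± 0.376 h in Mu and 1.99 ± 0.618 h in Hu, and Clock after Arntl by 0.731 ± 0.506 h and 0.924 ± 0.498 h. In Mu liver Npas2 peaked 1.15 ± 0.550 h after Arntl, and the peak of Clock minus that of Arntl was -1.91 ± 1.03 h. In Hu liver both lay within 0.444 h of Arntl, inside their errors, but none of the 3 genes passed the test for rhythm there. In Mu SCN the peak minus that of Arntl was 3.46 ± 1.79 h for Npas2 and -3.75 ± 1.71 h for Clock, and in Mu ARC it was -2.14 ± 1.79 h and -1.31 ± 1.92 h, and neither gene had a rhythm that passed in the cosine model in these regions. In Hu SCN and ARC the errors ran from 1.93 to 8.99 h.

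The genes that varied most alike over libraries were named for each member and tissue by Pearson's r of log2 CPM after the mean of each arm was removed. Libraries of a tissue share depth and cell makeup, and no test was made. In muscle, over 27 libraries, Arntl was most like Clock (r = 0.936), Slc25a36 (0.919) and Dlg5 (0.916), and Clock was most like Arntl (0.936), Npas2 (0.922) and Ptpn4 (0.912). Npas2 was most like Clock (0.922), Ptpn4 (0.921) and Plekhg1 (0.919), and its r with Arntl was 0.877, which ranked 8 for Arntl and 5 for Npas2. In liver, over 27 libraries, Arntl was most like Leo1 (0.936), Ypel2 (0.921) and Npas2 (0.876), and Npas2 most like St5 (0.944), Asap2 (0.925) and Ypel2 (0.900). Liver Clock was most like 4932438A13Rik (0.910), Rnf144b (0.907) and Zfr (0.900), and its r with Npas2 was 0.554. Neither liver Clock (edgeR adjusted p = 0.0631) nor 4932438A13Rik (0.164), Rnf144b (0.0883) or Zfr (0.140) passed for the rhythm common to both arms. In ARC (22 libraries) the genes most like Arntl were Npepps, Trim9 and Mprip, those most like Clock were Cntnap5b, Trim2 and Rock2, and those most like Npas2 were Lmo7, Prox1 and Zfp970. In SCN (22 libraries) they were Khdrbs3, Sox2 and Sox9 for Arntl, Appl1, Zfp638 and Ralgapa1 for Clock, and Ngef, Agap2 and Klf16 for Npas2, with r from 0.823 to 0.967. Clock and Npas2 had no rhythm that passed in these regions, so likeness there need not follow time of day.

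The genes that act on the activators, or that the activators act on, were counted from 5 lists. Of the nuclear receptors of the Arntl promoter, 3 were counted in liver (Nr1d1, Nr1d2 and Rora), and 3 had a rhythm in Mu liver and 2 in Hu liver. Of the 8 repressors of the activator pair, 7 passed in Mu liver and 3 in Hu liver, and of 4 output regulators 4 and 1. Other bHLH-PAS genes and coactivators passed in 2 of 12 in Mu and 0 of 12 in Hu, and modifiers and cofactors of the activators in 3 of 15 and 0 of 15. Beside 17.3% of all genes in Mu liver and 0.167% in Hu liver, the last 2 lists were near the background in Mu. In muscle the corresponding counts in Mu and Hu were 2 and 2 of 3 receptors, 6 and 6 of 8 repressors, 4 and 4 of 4 outputs, 1 and 2 of 12 family genes, and 3 and 4 of 15 modifiers, beside 5.31% and 7.78% of all genes. In ARC the common rhythm passed in 2 of 4 receptors, 6 of 8 repressors, 3 of 4 outputs, 1 of 16 family genes and 0 of 15 modifiers, and in SCN in 1, 4, 3, 1 and 0 of the same, beside 4.53% of all genes in ARC and 1.52% in SCN. The median amplitude was 2.14 for the repressors and 1.88 for the 3 activators in Mu liver, beside 0.27 for all genes tested.

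A rhythm that differed between arms in liver was found for 6 of the 42 list genes counted, beside 1.28% of all genes. They were the repressors Cry1 (edgeR adjusted p = 0.00622), Per2 (0.0180) and Bhlhe40 (0.0449), the receptors Nr1d2 (0.0217) and Nr1d1 (0.0240), which encode the REV-ERB proteins that repress Arntl, and Usp2 (0.0243), a deubiquitinase linked to clock proteins. Each had the lower amplitude in Hu, for example 0.78 against 1.91 for Cry1 and 2.09 against 3.65 for Nr1d1. In muscle the 3 that passed were Nr1d2 (edgeR adjusted p = 0.0198), Usp2 (0.0319) and Nr1d1 (0.0396), and their peaks were earlier in Hu, by Hu minus Mu differences of -4.55, -4.52 and -3.58 h. Nr1d1 peaked at ZT 7.0004 in Mu liver and ZT 6.69 in Hu liver, and at ZT 5.24 in Mu muscle and ZT 1.66 in Hu muscle. The lowest Arntl mean came later in each group, at ZT 6 in Hu muscle and at ZT 10 in the others. In Hu liver Arntl did not pass for rhythm (edgeR adjusted p = 0.119), and a link between these times was not tested.

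**Figure D5:**
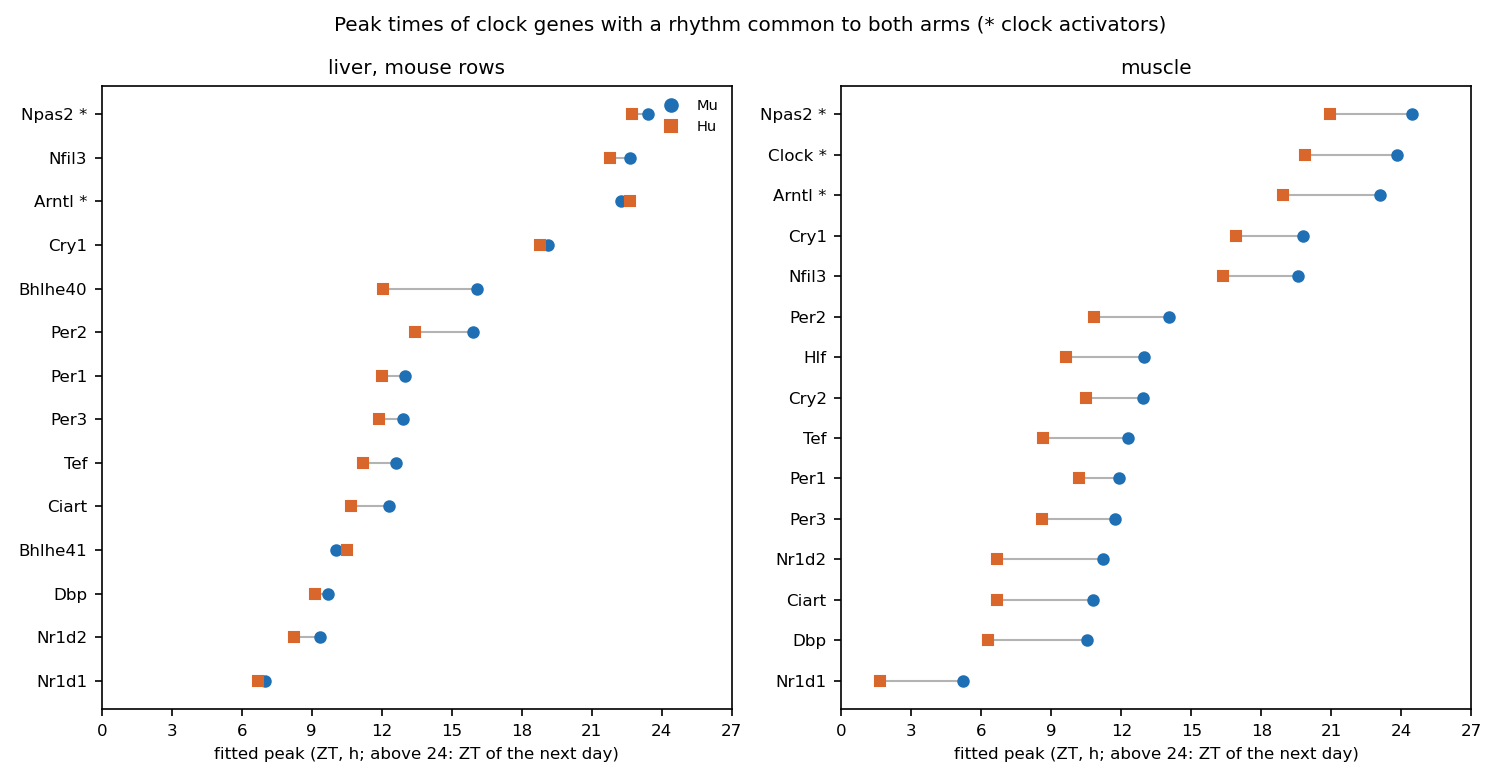
Fitted peak times (x axis, ZT in hours; values above 24 are ZT of the next day) of clock genes that passed the test of a common rhythm (rows) in liver mouse rows and in muscle; blue circles are Mu, orange squares Hu, and asterisks mark the activators. In muscle the activators peak between ZT 18.9 and ZT 0.461 of the next day, and the Hu symbols lie before the Mu symbols for each gene shown.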

How the data were processed

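RNA was sequenced from 98 libraries, and the authors deposited 2 tables of raw read counts per gene, which are whole numbers with no normalization. The submitters' processing notes name STAR and the builds GRCm38, mm10, hg38, GRCh38 and hg19, without roles; the counting program is not given in the sources used here. Per the labels' protocols the libraries kept strand. Mouse rows were analysed, 7.70 to 118.3 M counts per library, and 17729 human rows of the liver table served only for the human share. Each tissue was fitted alone with edgeR 4.0.16 (R 4.3.3, legacy quasi-likelihood): filterByExpr by arm, TMM factors, and a model with arm and, per arm, cosine and sine terms of 24 h. Adjusted p-values are Benjamini-Hochberg values over all genes of a tissue, called under 0.05. DESeq2 1.42.0 was an alternative, and the scripts were tested on simulated data. Genes most alike were the 3 with the highest r per member and tissue, and list genes were named, up to 5 per tissue, by the smallest p for a different rhythm; Bhlhe40 was named after its values were seen. The members and lists were chosen with earlier results of these data known. In ARC and SCN, 2 Hu columns of ZT 22 match a group but no single labelled sample. One gene of the lists is not reported here and is left out of their counts.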

Additional observations from a re-analysis of the deposited data

Results flagged for a closer look

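A different rhythm between groups under the same contrast is what brought each of these results here. Npas2 in liver had an edgeR adjusted p of 0.0445 for its rhythm in Hu against Mu, with amplitudes of 1.44 ± 0.32 and 3.63 ± 0.46. Within Mu, the rhythm in muscle differed from that in ARC for Arntl (edgeR adjusted p = 0.00297), Clock (0.00506) and Npas2 (2.11e-05), and from that in SCN with 0.00491, 0.000487 and 0.000139. The muscle amplitudes of the 3 genes in Mu were 1.56, 0.60 and 2.51, those in ARC 0.26, 0.15 and 0.23, and those in SCN 0.34, 0.13 and 0.63. Each arm held 1 to 3 libraries per time point, and no outlier test was made within them.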

How the results depend on the processing

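The number of the 3 activators called is given for each setting that moved it by over 1.5 times. In Hu liver it was 0 for rhythm as reported, 3 with library sizes over all rows, 1 without ZT 18 and 2 with DESeq2 (0 to 1 without 1 library). The different rhythm in liver, 1 as reported, became 0 with no filter, on library totals without TMM, with library sizes over all rows, with matched replicate numbers only and without ZT 2, 10, 14 or 22 (0 to 2 without 1 library). The level in liver, 1 as reported, became 2 without TMM, 3 over all rows, and 0 with matched numbers and without ZT 2, 6, 14 or 18 (0 to 1 without 1 library). The Arntl level reversed without TMM (edgeR adjusted p = 0.826), and so did the levels in muscle of Arntl against ARC (-0.34) and SCN (-0.20) and of Clock against SCN (-0.87). In muscle the rhythm calls fell from 3 to 1 in Mu without ZT 10 or 14, in Hu without ZT 6 or with each arm alone, and for the common rhythm with ZT as a factor or without ZT 10, and DESeq2 called 2 different rhythms against 0. In ARC the call in Mu became 0 with ZT as a factor, matched numbers, each arm alone or without ZT 2, 14 or 22, the call in Hu became 0 with RLE size factors, ZT as a factor, matched numbers, each arm alone, without the columns tied to a group only or without any ZT (0 to 1 without 1 library), and the common count was 1 to 2 without 1 library, where Clock joined without Mu replicate 1 of ZT 14. In SCN 1 was called in Mu, Arntl by the edgeR 4 method, without ZT 6 and by DESeq2 and Npas2 with ZT as a factor (0 to 1 without 1 library), 1 in Hu by DESeq2, and 0 for the common rhythm without ZT 10. Smaller moves, by 1 gene, were the loss of Clock in Mu liver with library sizes over all rows (0.568) and without ZT 10 or 18, of Clock in Mu muscle with ZT as a factor (0.0643) and without ZT 22 (0.0569), of Npas2 in Hu muscle without ZT 10 or 22 (0.0515 and 0.0630) and of Arntl in the common rhythm of muscle without ZT 18 (0.0523), and the gain of Clock in the common rhythm of liver with DESeq2 (0.0197) and matched numbers (0.0464). Between SCN and ARC 1 level was called without TMM (1 to 2 without 1 library), and 1 slope on the human share without TMM (0 to 1 without 1 library). Peak differences moved to 1.23 h for liver Arntl over all rows, to -1.78, 0.458 and -1.50 h for liver Npas2 without ZT 2, 6 and 18, to -2.85 h for muscle Arntl without ZT 6, to -5.64 h for muscle Clock without ZT 2, to -5.15 and -2.10 h for muscle Npas2 without ZT 2 and 6, and to 0.183 h for SCN Arntl without ZT 2. Correlations over genes between same-numbered Hu and Mu libraries had means of 0.115 in liver, 0.025 in muscle, 0.13 in ARC and 0.12 in SCN. In liver they ran from 0.0129 to 0.312, so all pairs were positive there. Where both arms held 2 libraries at a time point, its 2 pairs share 1 value by construction, so the pairs are not all independent. The lowest correlations were -0.145 in muscle, -0.159 in ARC and -0.275 in SCN, and the highest of all was 0.462 in muscle. These values do not settle whether the number pairs the libraries, since both signs occurred outside liver. With the number as a block, the different rhythm in liver (Npas2 edgeR adjusted p = 0.0558), the liver level (Arntl 0.0519) and the Hu ARC rhythm called 0 of 3, the SCN and ARC levels called 1, and no other count moved by over 1.5 times. The causes of these changes were not tested. At ZT 10 and 14, liver Npas2 rests on 16 to 27 counts per library in Mu and on 15 to 110 in Hu. Muscle Npas2 rests on 10 to 24 counts at ZT 6 in Hu and 15 to 18 at ZT 10 and 14 in Mu. Such counts limit how closely these troughs are known, and 2 ZT 22 libraries of Hu carry no replicate number.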
